A study of Mus musculus with 9 samples.

Results

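The genes of G2 and mitosis are a set of 45 named members, chosen by function: the Cdk1 engine and its regulators, the kinases of the spindle, the chromosomal passenger complex, the spindle checkpoint, the kinetochore, spindle motors, condensin, the anaphase machinery, cytokinesis and the proliferation marker Mki67. A gene was measured by the probe sets that the platform annotation assigns to it alone, and its level is that of the probe set with the highest mean over the 9 arrays. All 45 members had such a probe set (106 in all), and all 45 lay above the filter on dim probe sets on all 9 arrays, among 13288 genes tested of 18161 measured.

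The 9 arrays each hold RNA of sorted mouse cells from 1 sample, with 3 labelled control, 3 abnormal non-malignant and 3 NIC tumor. The series concerns T cell acute lymphoblastic leukemia and the non-malignant effects of too much NOTCH1, a receptor of the T lineage. The labels used here do not spell out NIC, the strain, age or genotype of the mice, the promoter of any transgene or the sorted population, nor what the groups share. Nor do they say whether separate animals gave the samples of a group. The p-values therefore measure only the spread between these samples, which may be technical.

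Cells that prepare to divide accumulate cyclins that activate Cdk1, which drives condensation of the chromosomes, assembly of the spindle and attachment of the kinetochores. The spindle checkpoint holds back the anaphase-promoting complex until every chromosome is attached; securin is then destroyed, separase opens cohesin and the cell divides. Most of these genes are transcribed together late in the cycle, through CCAAT boxes bound by NF-Y and a cell cycle genes homology region (CHR) bound by the MuvB complex with B-Myb and Foxm1. In the thymus, dividing cells are mainly immature thymocytes, and most CD4+CD8+ thymocytes no longer divide. In bulk RNA, fewer dividing cells and less of these RNAs per cell cannot be told apart.

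The promoters below are shown because the members share these 2 motifs. They belong to the 6 members whose probe sets had the highest mean signal among those with a motif, and come from RefSeq (build GRCm38.p6), each covering 250 bases before to 50 after the annotated start, written 5′ to 3′ along the gene. Capitals mark CCAAT (or ATTGG, its other strand) and the CHR as TTTGAA (or TTCAAA) or TTCGAA. The windows are those of Bub3, a checkpoint protein (chr7:131560120-131560419, plus strand), Top2a, the topoisomerase that untangles sister chromatids (chr11:99024140-99024439, minus strand), Mki67, which coats mitotic chromosomes (chr7:135716330-135716629, minus strand), Cdc20, an activator of the anaphase-promoting complex (chr4:118437294-118437593, minus strand), Cdca8, the passenger protein borealin (chr4:124936868-124937167, minus strand), and Ube2c, the ubiquitin-conjugating enzyme of that complex (chr2:164769679-164769978, plus strand).
Bub3: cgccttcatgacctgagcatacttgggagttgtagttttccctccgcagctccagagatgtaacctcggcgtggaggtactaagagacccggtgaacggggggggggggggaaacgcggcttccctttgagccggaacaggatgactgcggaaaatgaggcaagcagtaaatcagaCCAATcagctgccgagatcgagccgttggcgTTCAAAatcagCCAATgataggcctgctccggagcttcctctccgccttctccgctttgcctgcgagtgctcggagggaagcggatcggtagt
Top2a: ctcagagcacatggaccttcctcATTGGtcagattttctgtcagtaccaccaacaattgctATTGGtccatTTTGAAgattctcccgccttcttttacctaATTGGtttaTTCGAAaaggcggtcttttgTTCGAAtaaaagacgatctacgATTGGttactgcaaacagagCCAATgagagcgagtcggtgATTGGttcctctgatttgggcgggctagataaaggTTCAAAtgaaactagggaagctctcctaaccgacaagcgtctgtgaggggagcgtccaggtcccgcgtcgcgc
Mki67: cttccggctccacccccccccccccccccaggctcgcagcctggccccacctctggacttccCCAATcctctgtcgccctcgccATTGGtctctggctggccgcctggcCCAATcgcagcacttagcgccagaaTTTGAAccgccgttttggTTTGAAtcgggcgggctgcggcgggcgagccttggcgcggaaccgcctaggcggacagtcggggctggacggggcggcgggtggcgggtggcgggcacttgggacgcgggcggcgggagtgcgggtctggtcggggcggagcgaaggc
Cdc20: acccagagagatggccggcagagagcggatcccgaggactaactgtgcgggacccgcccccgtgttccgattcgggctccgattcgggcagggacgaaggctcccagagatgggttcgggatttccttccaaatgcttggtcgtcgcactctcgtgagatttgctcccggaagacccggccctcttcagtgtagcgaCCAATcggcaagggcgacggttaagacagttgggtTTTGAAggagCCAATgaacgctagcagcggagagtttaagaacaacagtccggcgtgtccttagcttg
Cdca8: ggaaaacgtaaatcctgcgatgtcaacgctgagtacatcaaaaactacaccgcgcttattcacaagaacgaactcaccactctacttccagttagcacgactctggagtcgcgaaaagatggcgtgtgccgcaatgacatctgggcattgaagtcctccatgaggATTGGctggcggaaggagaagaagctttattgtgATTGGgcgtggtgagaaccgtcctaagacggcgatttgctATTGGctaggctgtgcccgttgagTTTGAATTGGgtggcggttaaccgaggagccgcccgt
Ube2c: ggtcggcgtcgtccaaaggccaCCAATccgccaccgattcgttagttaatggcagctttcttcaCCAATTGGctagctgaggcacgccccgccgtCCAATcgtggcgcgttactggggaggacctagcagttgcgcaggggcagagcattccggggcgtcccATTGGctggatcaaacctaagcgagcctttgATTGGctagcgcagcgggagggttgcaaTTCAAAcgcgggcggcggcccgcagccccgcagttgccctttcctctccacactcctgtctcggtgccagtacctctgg

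Most member promoters held both motifs. A window was given for 37 of the 45 members; Ccna2, Cdc25c, Tpx2, Foxm1, Aurkb, Incenp, Smc4 and Kif20a had none. CCAAT was present, on either strand, in 29 of the 37 (78.4%), against 41.1% of all 27025 genes of the table. The CHR was present in 31 (83.8%, against 21.7%) and both motifs in 28 (75.7%, against 8.61%). The 2 motifs overlapped in 1 member, Cdca8, where the window reads TTTGAATTGG. A CHR lay within 50 bases of the start in 28 members, 75.7%, against 6.12% of all genes. Birc5, Mad2l1, Nuf2, Nusap1 and Pttg1 had neither motif in this window. Among the other genes of mitosis the CHR was held by 47 of 104 with a window (45.2%), and among genes of G1/S and replication by 3 of 17 (17.6%). A match is a run of letters and not a measured binding site.

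**Figure D1:**
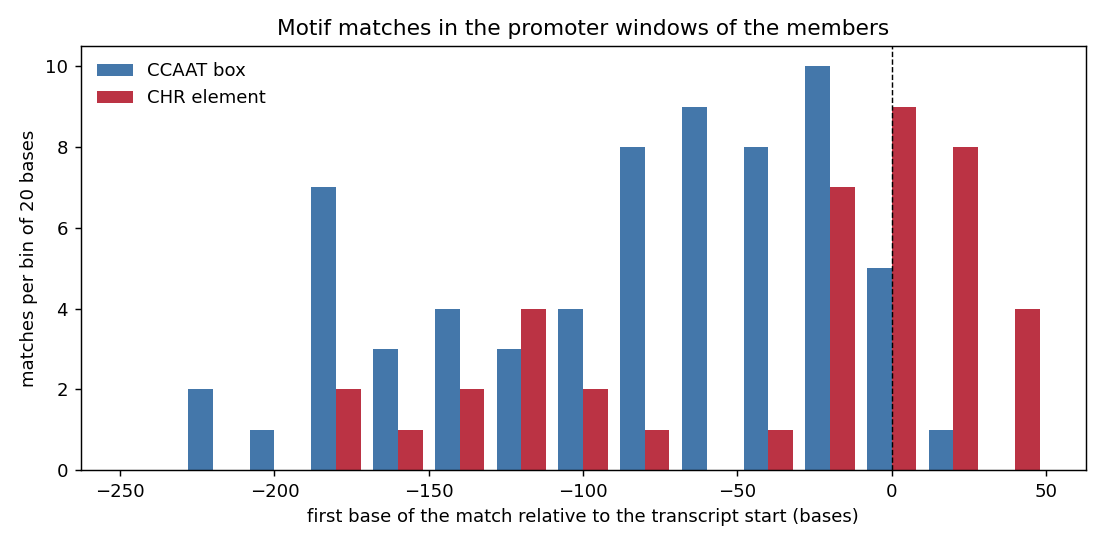
First base of each match to CCAAT (blue) and to the CHR (red) relative to the annotated transcript start in bases (x axis), as the number of matches per bin of 20 bases (y axis), in 1 promoter window for each of 37 members. Of 65 CCAAT matches 42 began in the 100 bases before the start, and of 41 CHR matches 28 began between 30 bases before and 49 after it.

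Several arrays stood apart from their group. Control 2 carried signal of the Y-linked gene Eif2s3y (8.69, at most 4.18 on the other 8 arrays) and the lowest Xist (10.27, at least 12.38 elsewhere). Non-malignant arrays 2 and 3 had 0 of 13288 genes 2-fold apart, against 121 or more for every other pair. Signals on tumor array 3 covered a narrower range than elsewhere, with an SD over probe sets of 1.97 against 2.12 to 2.19. The array medians lay between 5.67 and 5.77. Markers of the T lineage were above the filter on all 9 arrays (7 of 7 measured, among them Cd3e at 11.76 to 12.36), so the T lineage is present in every group.

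The members separated the controls before any comparison of groups. Control 2 was the lowest of the 3 controls for 43 of the 45 members, 95.6%, whereas it was the lowest for 34.6% of all genes tested. The exceptions were Ncapd2, a condensin subunit, and Kif23, a motor of the central spindle, which were lowest on control 1. Control 3 was the highest of the 3 for 37 members (82.2%, against 37.8% of all genes). Relative to each gene's mean over the 9 arrays, the median member stood at 0.37 on control 1, −0.25 on control 2 and 0.54 on control 3 (log2). Control 2 lay 2-fold or more below both other controls for Plk1, Aurkb, Incenp, Ttk and Espl1. Plk1, the polo kinase of mitotic entry, read 9.79, 8.69 and 9.9 on controls 1, 2 and 3, and Incenp, the scaffold of the passenger complex, 11.2, 10.13 and 11.33. In all, it was 2-fold or more below control 1 for 6 members and below control 3 for 8, while controls 1 and 3 were within 2-fold of each other for all 45. G1/S and replication genes showed the same order of controls, with medians of −0.01, −0.43 and 0.16.

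The non-malignant arrays lay close together in their medians. Their medians over the members were 0.05, 0.1 and 0.03, and the median SD of a member within the group was 0.13, against 0.42 in controls and 0.24 in tumors. Gene by gene only non-malignant arrays 2 and 3 were near-identical, with an SD over members of their difference of 0.1. That SD was 0.33 and 0.32 for non-malignant 1 against arrays 2 and 3, and 0.24 to 0.3 between controls. The tumor medians were −0.19, −0.26 and −0.26, so that all 3 tumors and control 2 lay below the non-malignant arrays and the other controls above them. The tumors agreed in the median but not gene by gene. Tumor 1 was below the 9-array mean for 43 members, tumor 2 for 36 and tumor 3 for 33. The lowest of the 9 arrays was control 2 for 15 members (33.3%, against 16.2% of all genes) and tumor 3 for another 15 (26.5% of all genes).

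**Figure D2:**
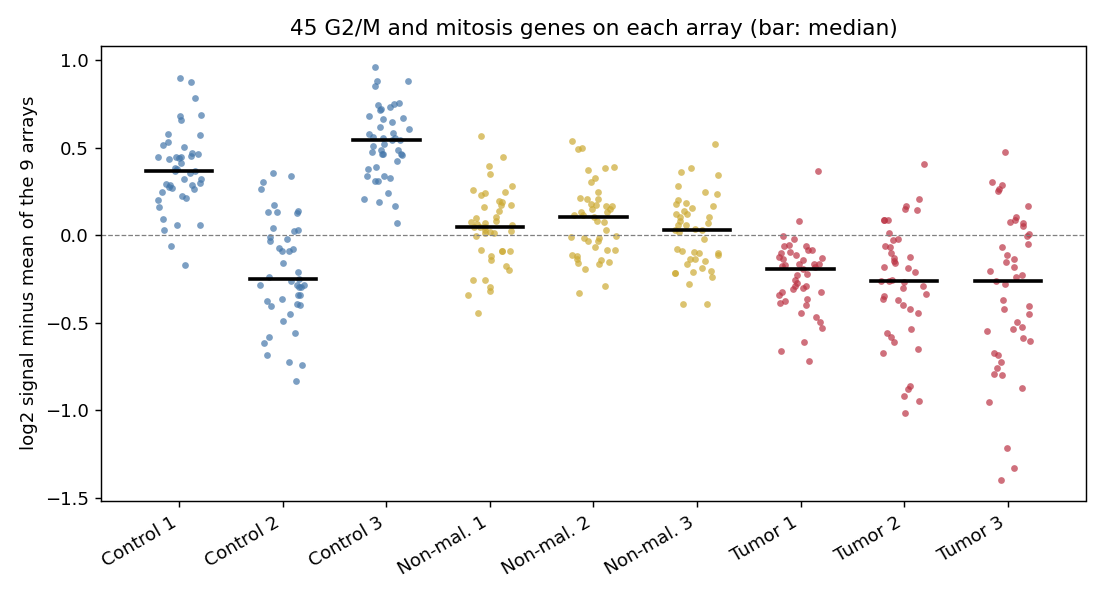
Each point is 1 of the 45 members on 1 array, as its log2 signal minus its own mean over the 9 arrays (y axis), for the 9 arrays (x axis); black bars are medians over members. Controls 1 and 3 have the highest medians (0.37 and 0.54), control 2 (−0.25) lies among the tumors (−0.26 to −0.19), and the points of tumor 3 spread most widely.

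**Figure D3:**
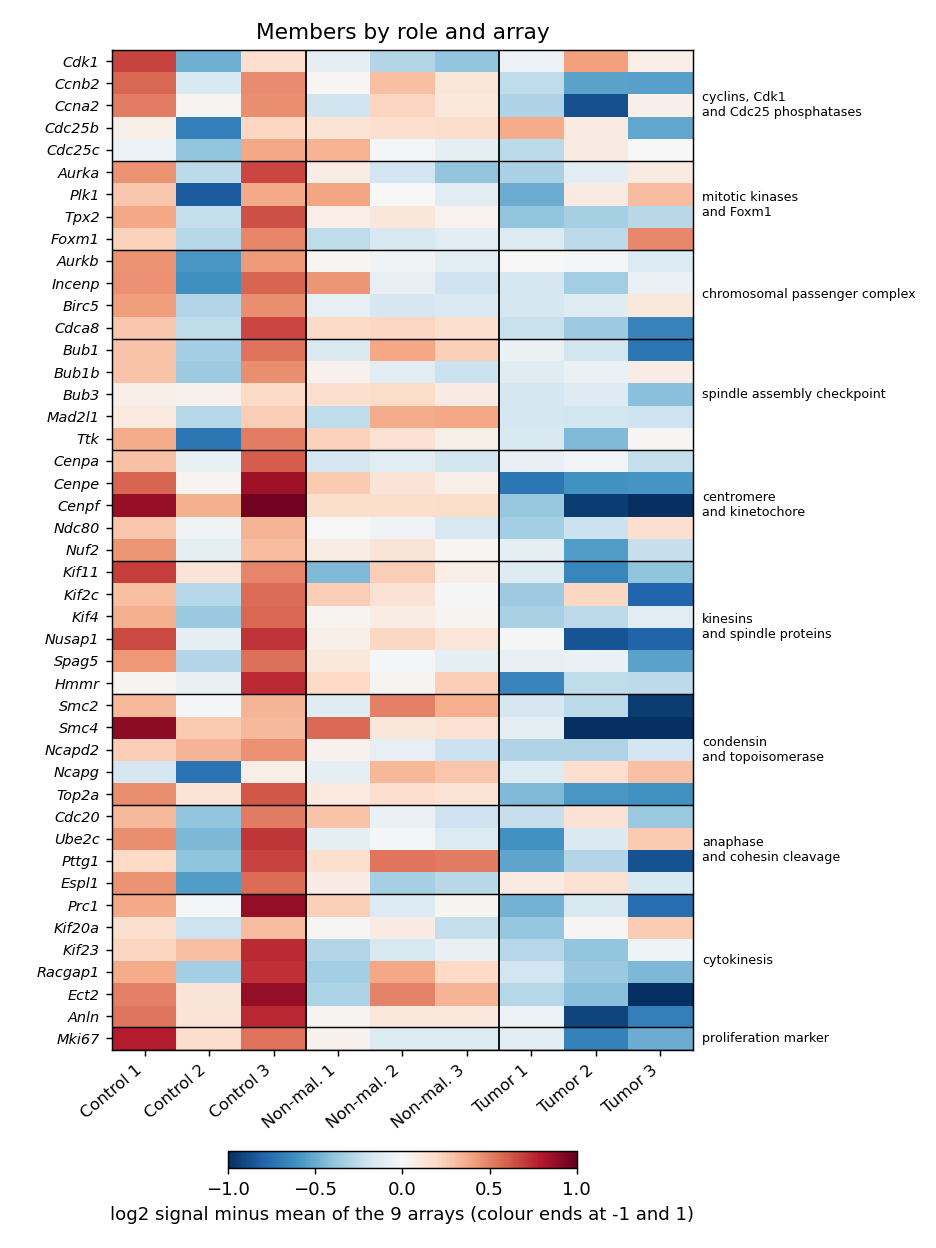
The same values for each member (rows, grouped by role) and array (columns); red is above and blue below the gene's mean over the 9 arrays, in log2 units. Control 2 is pale or blue in nearly every row, while the darkest blue lies in tumor 3 for Cenpf, Ect2 and Smc4, and Cdk1 and Ncapg are near 0 or red in the tumors.

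The comparison of NIC tumors with controls asks whether the malignant cells express the division machinery at another level. Of the 45 members, 13 fell in the tumors and 0 rose (limma, Benjamini-Hochberg adjusted p under 0.05 over all 13288 genes tested). That is 28.9% of the members, against 7.19% of all genes that fell and 8.49% that rose (15.7% in either direction). At an unadjusted p under 0.05, 21 were lower (14.8% of all genes) and 0 higher (17.4%). On simulated data the share of false calls in this comparison was above the threshold. The median member differed by −0.49 (log2, tumor minus control), and the median of all genes tested by 0.06. In 41 members the tumor mean was the lower one (91.1%, against 43.6% of all genes). In 17 members every tumor lay below every control (37.8%, against 14.3% of all genes), and in 0 every tumor lay above (18.2% of all genes). Without control 2 the median was −0.72 and 13 members fell, 9 of them the same genes.

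Kinetochore genes held the largest fall. Cenpf, a large protein of the outer kinetochore, read 10.27, 9.75 and 10.36 on controls 1 to 3, 9.57, 9.57 and 9.58 on the non-malignant arrays and 9.02, 8.45 and 8.0 on tumors 1 to 3. Every tumor lay below every other array. It fell by 1.63 ± 0.26 on the log2 scale in tumors against controls (SE, n = 3 each, 3.1-fold, limma adjusted p = 0.00489). Its other 2 probe sets, dimmer, gave −0.44 and −0.42.

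Cenpe, the kinesin that carries chromosomes to the spindle equator, read 9.47, 8.92 and 9.74 in controls, 9.15, 9.02 and 8.95 in non-malignant samples and 8.17, 8.28 and 8.3 in tumors. The tumors lay together, more than 0.6 below the lowest other array. Its fall was 1.13 ± 0.21 (SE, n = 3 each, 2.18-fold, limma adjusted p = 0.00943), and the second probe set gave −1.8. Kinetochore members thus fell in 2 of 5 cases, where 7.19% of all genes fell. The other 3 of this role did not pass. Cenpa, the histone H3 variant of centromeres, differed by −0.39, and the microtubule-binding pair Ndc80 and Nuf2 by −0.32 and −0.52.

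Condensin and topoisomerase genes fell in 3 of 5 cases, where 7.19% of all genes fell. Top2a read 12.03, 11.7 and 12.18 in controls, 11.66, 11.73 and 11.7 in non-malignant samples and 11.12, 10.98 and 10.96 in tumors. All 3 tumors lay below the other 6 arrays. It fell by 0.95 ± 0.14 (SE, n = 3 each, 1.93-fold, limma adjusted p = 0.00349), the smallest adjusted p of the set. The dimmer probe sets of Top2a gave −0.54 and −0.01, the latter above the filter on 0 arrays. Smc4, an ATPase of condensin, read 12.57, 11.94 and 12 in controls, 12.24, 11.79 and 11.83 in non-malignant samples and 11.58, 10.66 and 10.46 in tumors. Tumor 1 was close to the non-malignant arrays and tumors 2 and 3 were about 1 lower. It fell by 1.27 ± 0.29 (adjusted p = 0.0193), and its 3 probe sets gave −1.27, −1.22 and −1.17. Ncapd2 fell by 0.61 ± 0.14 (adjusted p = 0.0217), from 10.2, 10.29 and 10.41 to 9.65, 9.65 and 9.77, with the non-malignant samples at 10, 9.87 and 9.74. Its dimmer probe set gave −0.19. The remaining subunits did not pass and differed in sign, Smc2 at −0.68 and Ncapg at 0.39, the highest value of the 45. The other probe set of Ncapg, nearly as bright (mean 8.3, against 8.63), gave −0.22.

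Cytokinesis genes fell in 4 of 6 cases (66.7%, against 7.19% of all genes). Anln, the actin-binding ring protein anillin, read 7.91, 7.51 and 8.13 in controls and 7.32, 6.46 and 6.69 in tumors, with the non-malignant samples at 7.4, 7.48 and 7.48. Tumors 2 and 3 were the lowest arrays by a margin, and tumor 1 was near the non-malignant level. It fell by 1.03 ± 0.24 (SE, n = 3 each, limma adjusted p = 0.0207). Its other probe set, above the filter on 0 arrays, gave −0.28. Ect2, the exchange factor that activates RhoA at the cleavage site, read 9.18, 8.81 and 9.56 in controls, 8.36, 9.17 and 9.02 in non-malignant samples and 8.39, 8.26 and 7.35 in tumors. Tumor 3 was the lowest array by a wide margin, and non-malignant 1 lay among the tumors. It fell by 1.19 ± 0.33 (adjusted p = 0.0382). Prc1, which bundles microtubules of the midzone, read 9.68, 9.29 and 10.18 in controls, 9.54, 9.16 and 9.33 in non-malignant samples and 8.83, 9.14 and 8.54 in tumors. All 3 tumors were below every other array. It fell by 0.88 ± 0.25 (adjusted p = 0.0415), and its second probe set gave −1.35. Kif23 read 9.56, 9.65 and 10.09 in controls, 9.05, 9.19 and 9.27 in non-malignant samples and 9.06, 8.95 and 9.3 in tumors. Every control lay above the other 6 arrays, which overlap. It fell by 0.66 ± 0.19 in tumors (adjusted p = 0.0408). Its dimmer probe sets gave −0.56 and −0.23. Racgap1, the partner of Kif23 in centralspindlin, read 9.84, 9.13 and 10.2 in controls, 9.13, 9.86 and 9.67 in non-malignant samples and 9.28, 9.1 and 9.02 in tumors. Control 2 lay inside the range of the tumors, and the gene differed by −0.59 (adjusted p = 0.185). The midzone motor Kif20a differed by −0.13 (adjusted p = 0.696).

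By the probe sets chosen, all 6 spindle genes had lower means in tumors, and 2 passed (33.3%, against 7.19% of all genes that fell). Nusap1, a microtubule-bundling protein, read 11.15, 10.4 and 11.21 in controls, 10.55, 10.7 and 10.61 in non-malignant samples and 10.47, 9.63 and 9.69 in tumors. Tumor 1 lay just above control 2, so that the groups overlap. It fell by 0.99 ± 0.27 (SE, n = 3 each, limma adjusted p = 0.0365). Its dimmer probe set gave −0.29. Kif11, the motor that separates spindle poles, read 10.05, 9.49 and 9.85 in controls, 8.92, 9.61 and 9.43 in non-malignant samples and 9.23, 8.71 and 8.96 in tumors. The tumors lay below the controls, and non-malignant 1 lay among the tumors. It fell by 0.83 ± 0.24 (adjusted p = 0.0422), with −1.29 and −0.33 from its other probe sets. Hmmr, Kif2c, Spag5 and Kif4 had differences of −0.62 to −0.42 and did not pass. Other probe sets gave 0.16 to 0.47 for Kif2c, −0.27 and 0.43 for Spag5, and −1.01 to −0.52 for Hmmr.

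Mki67 fell as well. It read 12.22, 11.61 and 11.98 in controls, 11.48, 11.3 and 11.3 in non-malignant samples and 11.32, 10.76 and 10.94 in tumors. Every control lay above the other 6 arrays, and non-malignant and tumor values overlap. The fall in tumors was 0.93 ± 0.19 (SE, n = 3 each, 1.9-fold, limma adjusted p = 0.0132).

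The Cdk1 engine split by member. Ccnb2, cyclin B2, read 11.05, 10.32 and 10.95 in controls, 10.49, 10.78 and 10.6 in non-malignant samples and 10.22, 9.94 and 9.93 in tumors. Tumors were the 3 lowest arrays, with control 2 the next, and the fall was 0.74 ± 0.21 (SE, n = 3 each, limma adjusted p = 0.039). Ccna2, cyclin A2, differed by −0.71 without passing (adjusted p = 0.0812). Its second probe set gave −0.87, and tumor 3 (10.71) lay above control 2 (10.68). Cdk1 itself read 11.44, 10.27 and 10.93 in controls, 10.67, 10.47 and 10.37 in non-malignant samples and 10.7, 11.17 and 10.83 in tumors. The tumors lay within the range of the controls and above the non-malignant samples. Tumors and controls differed by 0.02 ± 0.27 (adjusted p = 0.964). The Cdk1-activating phosphatases Cdc25b and Cdc25c differed by 0.11 and −0.04, and the 2 probe sets of Cdc25c disagreed in sign.

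None of the mitotic kinases with Foxm1, the passenger complex, the checkpoint or the anaphase genes passed, 0 of 17 by limma. Of all genes 7.19% fell, and with so few members 0 calls lies near that share. At an unadjusted p under 0.05, 4 (Tpx2, Cdca8, Bub3 and Pttg1) were lower (14.8% of all genes). Plk1 read 9.79, 8.69 and 9.9 in controls, 9.92, 9.52 and 9.42 in non-malignant samples and 9.03, 9.61 and 9.83 in tumors. The tumor values span the range between control 2 and control 3, and the difference from controls was 0.03 ± 0.34. Aurka, the kinase of the spindle poles, read 10.03, 9.32 and 10.25 in controls, 9.66, 9.39 and 9.19 in non-malignant samples and 9.26, 9.48 and 9.67 in tumors. The groups overlap, at −0.40 ± 0.25 for tumors against controls. Tpx2, which activates Aurora A, stood at −0.60 with every tumor below every control (adjusted p = 0.0929), but of its other 3 probe sets 2 gave 0.21 and 0.37.

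Among the passenger proteins Cdca8 was the lowest in tumors. It read 11.41, 10.89 and 11.81 in controls, 11.33, 11.35 and 11.31 in non-malignant samples and 10.92, 10.78 and 10.47 in tumors. Control 2 was just below tumor 1, and the difference from controls was −0.64 ± 0.22 (limma adjusted p = 0.0791). Aurkb, Incenp and Birc5, which encodes survivin, had values between −0.33 and −0.15. The other probe sets of Incenp, all dimmer, ran from −1.53 to 0.63. Bub3 read 11.85, 11.83 and 11.98 in controls, 11.96, 11.97 and 11.87 in non-malignant samples and 11.61, 11.66 and 11.37 in tumors. Every tumor lay below the other 6 arrays by a small margin, at −0.34 ± 0.12 (adjusted p = 0.083), while of its other 4 probe sets 1 gave 0.21 and 3 gave −0.69 to −0.44. The checkpoint members Bub1, Bub1b, Mad2l1 and Ttk lay between −0.49 and −0.17.

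Pttg1, securin, read 12.08, 11.48 and 12.56 in controls, 12.04, 12.42 and 12.4 in non-malignant samples and 11.35, 11.59 and 11.01 in tumors. Tumors lay below every non-malignant array, and control 2 lay among the tumors. The difference from controls was −0.72 ± 0.26 (limma adjusted p = 0.0929). Cdc20 differed by −0.30, Ube2c by −0.41 and Espl1, separase, by −0.12.

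**Figure D4:**
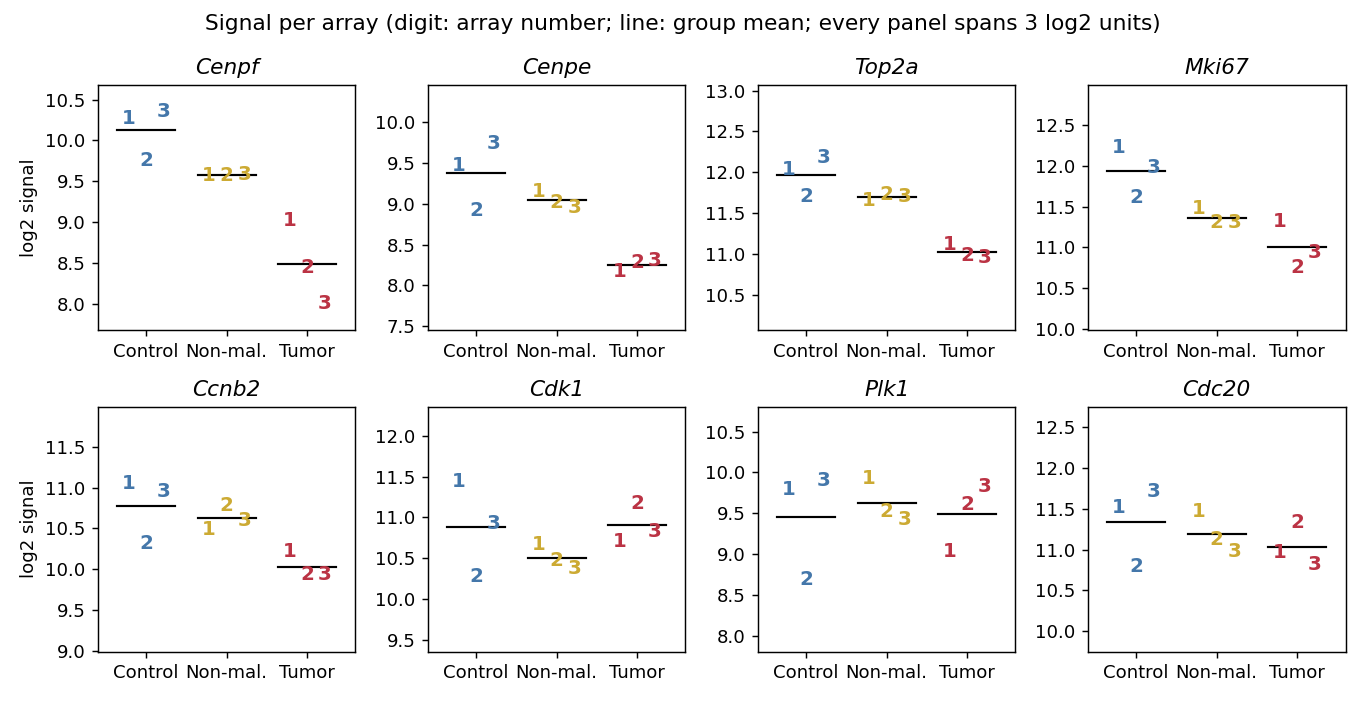
Log2 signal (y axis) of 8 members in the 3 groups (x axis); digits are array numbers and lines group means, and each panel spans 3 log2 units. Tumors lie below all other arrays for Cenpf, Cenpe, Top2a and Ccnb2, and overlap the controls for Cdk1, Plk1 and Cdc20, where control 2 is the lowest array.

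The 4 genes Cenpf, Cenpe, Top2a and Mki67 kept the call under all 19 alternative settings, including each array left out in turn, with adjusted p of at most 0.0497. The other 9 lost it in 4 or more settings. The count was 4 without control 1, 5 without control 3, 4 without tumor 2, 8 without tumor 3 and 7 without non-malignant 2 or 3, and it was 16 without tumor 1. With the arrays quantile-normalized, which removes the narrower spread of tumor 3, 11 fell and the median was −0.41. Averaged over all probe sets of a gene, 11 fell with a median of −0.35. Among 29 members with 2 or more probe sets above the filter, those of 9 differed in sign, none of them a called gene.

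Markers of T cell stages and of other cells were set beside these values. Of 8 measured markers of CD4+CD8+ thymocytes, 7 fell in tumors against controls (87.5%, against 7.19% of all genes). The log2 of their summed signal was 15.34 to 15.84 in controls, 14.74 to 14.82 in non-malignant samples and 11.9 to 14.24 in tumors. Of 7 T lineage markers, 3 fell (42.9%), with sums of 15.16 to 15.34, 15.05 to 15.31 and 14.18 to 14.84. Of 10 myeloid markers tested, 0 passed by limma (8.49% of all genes rose), with 4 higher at an unadjusted p under 0.05 (17.4% of all genes). The sums over all 11 measured were 9.35 to 9.53, 10.26 to 10.27 and 9.48 to 10.92. Of 4 erythroid markers tested, 0 passed by limma, with 3 higher at an unadjusted p under 0.05, against the same shares of all genes. The sums over all 6 measured were 8.52 to 8.64, 9.11 to 9.31 and 8.96 to 10.64, where the highest was tumor 2. The globin gene Hba-a1 lay under the 40th percentile on all 9 arrays. The part of these cells in the result was not tested.

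Setting the abnormal non-malignant samples against controls addresses division in cells that are altered without being malignant. Here 0 of the 45 members passed by limma (0.655% of all genes fell and 2.87% rose, 3.53% in either direction), with 4 lower and 0 higher at an unadjusted p under 0.05 (3.92% and 9.36% of all genes). The median member differed by −0.22, and 36 of the 45 were lower (80.0%, against 48.7% of all genes). Among 29 members with 2 or more probe sets above the filter, those of 10 differed in sign here. In 6 members, Cenpa, Cenpf, Ncapd2, Kif23, Anln and Mki67, every non-malignant array lay below every control (13.3%, against 9.16% of all genes), and in 0 every one lay above (17% of all genes). Centring the arrays on their medians moved the median of all genes by more than 0.1, from 0.01 to −0.1, and that of the members to −0.32. The calls over all genes were then 320 higher and 134 lower in place of 382 and 87. Both comparisons with controls share the 3 control arrays.

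These values turn on control 2. Controls 1 and 3 both lay above all 3 non-malignant arrays for 33 of the 45 members (73.3%, against 13.2% of all genes), and control 2 lay below all 3 for 28 (62.2%, against 34.7%). The median was −0.44 without control 2, −0.14 without control 1 and −0.07 without control 3, and 0 members passed in any of these fits. Kif23 is 1 of the 2 members for which control 2 was not the lowest control, and its difference was −0.59 ± 0.19 (SE, n = 3 each, limma adjusted p = 0.162). Mki67 differed by −0.57 ± 0.19 (adjusted p = 0.19), Ncapd2 by −0.43 ± 0.14 (adjusted p = 0.193) and Cenpa by −0.43 ± 0.18 (adjusted p = 0.345). Cenpa read 10.31, 9.94 and 10.62 in controls, 9.84, 9.9 and 9.83 in non-malignant samples and 9.93, 9.99 and 9.78 in tumors, where control 2 lay among the tumors. Above controls stood Ncapg at 0.45, Cdc25b at 0.3 and Pttg1 at 0.25. Among roles with several members the medians ran from −0.35 for cytokinesis to 0.05 for the checkpoint. With array weights, which were 3.44 and 4.65 for the near-identical non-malignant arrays 2 and 3, 0.516 for non-malignant 1 and 1.51, 0.72 and 1.21 for controls 1 to 3, 8 members were called lower (Aurka, Birc5, Cenpa, Cenpf, Ncapd2, Top2a, Kif23 and Mki67). A similar share of all genes was called in either direction with these weights, by the counts given at the end. The share of all genes called lower is not given for these weights, so the 8 lower calls have no like share beside them. Of the 8 CD4+CD8+ markers 0 passed by limma in this comparison (0.655% of all genes fell), with 2 lower at an unadjusted p under 0.05 (3.92%). The myeloid sums of the non-malignant arrays lay above those of all 3 controls. The part of these cells in the differences was not tested.

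**Figure D5:**
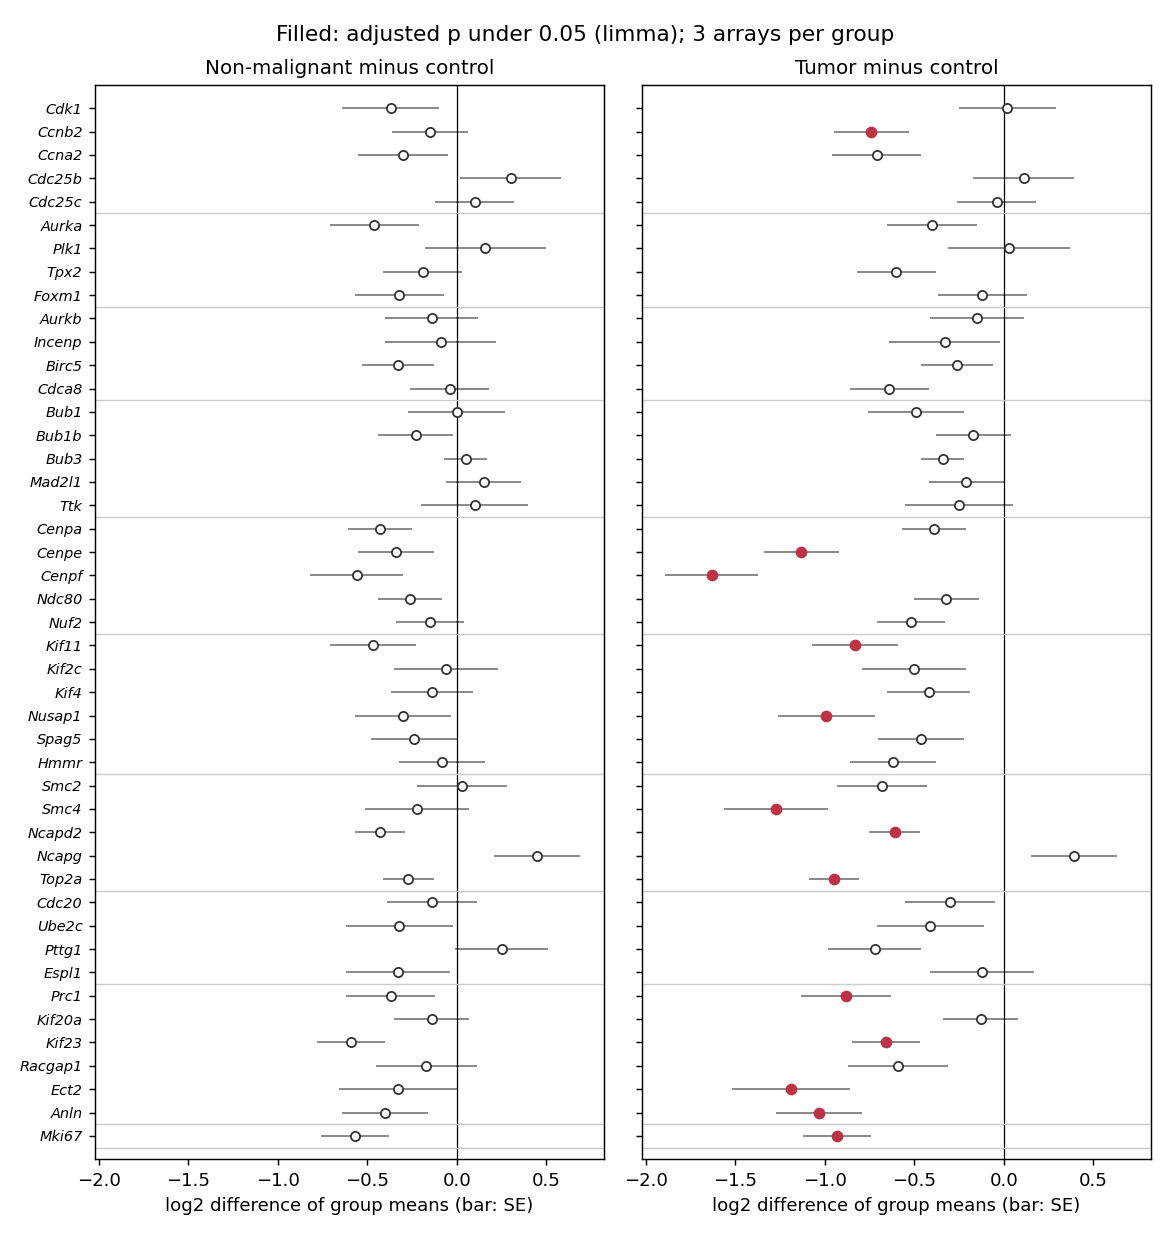
Log2 difference of group means for each member (x axis; bars are the standard error of the fit), non-malignant minus control on the left and tumor minus control on the right, members grouped by role and filled where adjusted p is under 0.05. No member is filled on the left and 13 are on the right, all below 0.

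Tumors against abnormal non-malignant samples compares the malignant with the altered but non-malignant state. Of the 45 members 1 fell and 0 rose (2.22%, against 2.7% of all genes that fell and 1.53% that rose, 4.23% in either direction), and 13 were lower at an unadjusted p under 0.05 (14.4% of all genes). The 1 call was Top2a, by 0.67 ± 0.14 (SE, n = 3 each, limma adjusted p = 0.0351), a call that was lost in 11 of the 19 alternative settings, among them the replicate block and the fits without non-malignant 1, 2 or 3, control 1 or 3 and tumor 2 or 3. The dimmer probe sets of Top2a gave −0.2 and −0.09. The next smallest adjusted p were those of Cenpf at −1.08 (adjusted p = 0.0518), Cenpe at −0.79 (adjusted p = 0.0662), Pttg1 at −0.97 (adjusted p = 0.0665) and Smc4 at −1.05 (adjusted p = 0.0708). The median was −0.35 (0.03 over all genes), with 37 of 45 lower (82.2%, against 46.5% of all genes). These directions depend on the probe set: of 29 members with 2 or more above the filter, those of 15 differed in sign. Every tumor lay below every non-malignant array for 17 members (37.8%, against 14.8% of all genes), and above for 1 (12.3% of all genes), Cdk1 (0.39, limma adjusted p = 0.367). Without tumor 1 the count was 9, Cenpf and Smc4 among them, and without control 2 it was 3. Over all genes the calls ran from 53 to 3399 with 1 array left out.

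Falls were found in members with and without the promoter motifs. In tumors against controls the 31 members with a CHR had a median of −0.49 and the 6 without one −0.62; no test was made. Of the 12 called genes with a window, 10 held a CHR, among them Top2a and Mki67 whose promoters are printed above, and of 25 others 21 did.

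In the wider list of mitosis genes the array medians, relative to each gene's mean, were 0.18, −0.08 and 0.34 in controls, 0.05, 0.09 and −0.01 in non-malignant samples and −0.08, −0.2 and −0.27 in tumors. Of 128 genes listed, 124 were tested, and 23 fell and 1 rose in tumors against controls (18.5%, against 7.19% of all genes, and 0.806%, against 8.49%). Their median was −0.38. The smallest adjusted p were those of Mad1l1, a checkpoint protein, at −1.58 ± 0.24 (limma adjusted p = 0.0041), Fbxo5, which inhibits the anaphase-promoting complex, at −1.51 ± 0.29 (adjusted p = 0.0105) and Ska2, of the kinetochore, at −1.08 ± 0.22 (adjusted p = 0.0117). Anapc11, a subunit of the anaphase-promoting complex, was the 1 that rose (1.04, adjusted p = 0.019). Condensin and cohesin genes fell in 7 of 15 cases (median −0.80), other kinetochore genes in 5 of 36, spindle genes in 3 of 23, kinases and cyclins in 3 of 17, and MuvB and pocket protein genes in 4 of 18. Subunits of the anaphase-promoting complex and its regulators had 1 higher and 1 lower of 15 (median −0.04).

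In non-malignant samples against controls 0 of the 124 passed (0.655% of all genes fell and 2.87% rose), with a median of −0.12. At an unadjusted p under 0.05, 6 were lower and 2 higher (3.92% and 9.36% of all genes). Mad1l1 stood at −0.98 (limma adjusted p = 0.0653), Cdca3 at −0.57 (adjusted p = 0.1) and Cdkn1a, the Cdk inhibitor p21, at −0.80 (adjusted p = 0.149). In tumors against non-malignant samples 1 passed, Mis12 of the kinetochore (−0.73, adjusted p = 0.0446). That is 0.806% of the list, against 2.7% of all genes that fell. Cdc14a, a phosphatase, stood at −1.11 (adjusted p = 0.0548) and Depdc1a at −1.54 (adjusted p = 0.0567).

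Genes of G1/S and DNA replication moved in both directions in tumors. Of 23 tested, 2 rose (8.7%, against 8.49% of all genes) and 3 fell (13.0%, against 7.19%), shares that rest on few genes. The median was 0.21 where that of the mitosis members was −0.49; the difference between the lists was not tested. Mcm3, of the replicative helicase, rose by 1.33 ± 0.24 (limma adjusted p = 0.00822) and Ung, a uracil glycosylase, by 1.22 (adjusted p = 0.0266). Ccne2, cyclin E2, fell by 2.48 ± 0.48 (adjusted p = 0.0105), Rrm2, of ribonucleotide reductase, by 0.96 (adjusted p = 0.00835) and Pcna, the sliding clamp, by 0.48 (adjusted p = 0.0391). Against the non-malignant samples 1 passed, Ccne2 (−2.21, adjusted p = 0.0403), 4.35% of the list against 2.7% of all genes that fell. Between non-malignant samples and controls 0 of 23 passed by limma, with 1 lower at an unadjusted p under 0.05 (3.92% of all genes). The smallest adjusted p was that of the thymidylate synthase gene Tyms (−0.69, limma adjusted p = 0.236).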

How the data were processed

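The authors deposited log2 signals of 45101 Affymetrix probe sets on 9 arrays, already on a common scale; the normalization is not given in the sources used here, and that the scale is log2 follows from its range (2.68 to 14.57). Per the labels' protocols, RNA came from sorted cells and was amplified to biotin-labelled cRNA. Probe sets with exactly 1 gene symbol (34945) gave 18161 genes, under current RefSeq symbols (assembly GRCm38.p6). Genes were tested whose signal exceeded the 40th percentile of its array on 3 or more arrays.

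All 9 arrays entered 1 fit of the 3 group means, made in R 4.3.3 with limma 3.58.1 (variance trend, residual degrees of freedom 6), two-sided, with Benjamini-Hochberg adjustment over 13288 genes; tables were made in Python 3.11.15 with pandas 2.3.3. With 3 arrays against 3, the smallest p of an exact permutation is 0.1. Simulated data were used to test the fit. Their genes were independent, each SD within a group was shrunk toward the group mean, and some genes were given a difference in the tumors. The share of false calls was above the threshold in both tumor comparisons. The number of arrays limits the precision.

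Members, lists, model and alternatives were chosen with earlier results of these data known. All 45 members could be named; values of every array were given for called members, for the brightest of each role and for Ccnb2, Cdk1, Mki67, Top2a and Plk1, and of other lists the 3 smallest adjusted p per comparison, with further genes of counts of 5 or fewer named after their values were seen. Markers of B cells and thymic stroma were also examined. Of 6 B cell markers tested, 0 rose and 2 fell in tumors against controls (8.49% and 7.19% of all genes). Of 6 stroma markers 0 passed by limma (15.7% of all genes in either direction in tumors against controls), with 0 at an unadjusted p under 0.05. These shares rest on few genes.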

Additional observations from a re-analysis of the deposited data

How the results depend on the processing

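No called difference changed its direction under any setting tried. In tumors against controls the number of members called, 13, was 20 with array weights, 7 with non-malignant arrays 2 and 3 averaged, 4 with only the 2 groups compared, and 4 to 16 with 1 array left out. In non-malignant samples against controls it stayed 0, also with 1 array left out (0 to 0), except 8 with array weights. In tumors against non-malignant samples it was 1, and 19 with array weights, 2 with the 60th percentile filter, median centring, no variance trend or quantile normalization, 0 with the 2 arrays averaged or only the 2 groups compared, and 0 to 9 with 1 array left out. With array weights the shares of all genes called in either direction in both comparisons with non-malignant samples were close to those of the members. In tumors against non-malignant samples the calls over all genes ran from 53 to 3399 with 1 array left out. The median there (−0.35) was −0.28 with array weights, −0.20 with the mean of all probe sets, −0.27 with median centring, −0.31 with the 2 arrays averaged and −0.20 with quantile normalization. With 1 array left out the medians ran from −0.38 to −0.24 there, from −0.72 to −0.30 in tumors against controls and from −0.44 to −0.07 in non-malignant samples against controls. The cause was not tested, except that leaving out or averaging arrays leaves fewer of them.

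The replicate numbers are shared by the groups, but the labels do not say that they pair samples. Correlations of the deviations of same-numbered arrays ran from −0.0464 to 0.222, which does not settle whether the numbers pair samples. With the replicate block 9, 0 and 1 members were called for tumors less controls, non-malignant samples less controls and tumors less non-malignant samples. In the last, the call was Smc4 and that of Top2a was lost. Over all genes the calls, 2084, 469 and 562 in this order, were 4884, 2420 and 5698 with array weights, 842, 1121 and 110 with only the 2 groups compared, 1472, 208 and 66 with the 2 arrays averaged, and 1916, 399 and 287 with the replicate block.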
